A study of Mus musculus with 6 samples.

Results

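The genes described here encode the proteins that start translation in the cytoplasm. They are 37 genes out of the 19060 in the counts table: the 3 subunits of eIF2, the 5 subunits of its exchange factor eIF2B, the 4 kinases that phosphorylate eIF2, 13 subunits of eIF3, 6 members of the eIF4 group, and 6 genes for scanning, ribosome joining and poly(A) binding. The rule is a list of gene names, drawn up with earlier results of these data known. All 37 were in the table and passed the filter on low counts.

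RNA came from the proximal end of the mouse incisor, a tooth that keeps growing from stem cells at its base. The 3 mutant samples were Gli1CreER;Fgfr1fl/fl, homozygous for an Fgfr1 allele with loxP sites. In these mice tamoxifen activates Cre in cells that express Gli1, so that the receptor is deleted in part of the tissue only. The 3 control samples are labelled wild type, whereas other experiments of the study used Fgfr1fl/fl mice without Cre as controls, and whether the sequenced controls carried the floxed allele is not given in the sources used here. Tamoxifen was given at 1 month of age and the incisors were collected 1 week later. In the labels the driver is written Gli1-Cre. They do not say whether the samples of a genotype came from separate mice, so the p-values measure the spread between these samples, which may be technical in part. Sex-linked counts given further on differ among the mutants, so that their spread includes a difference between mice.

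Translation of most mRNAs starts when eIF2, loaded with GTP, brings the initiator tRNA to the small ribosomal subunit together with eIF1, eIF1A, eIF3 and eIF5. The eIF4 proteins bind the cap and unwind the leader of the mRNA, the complex scans for the start codon, and eIF5B then joins the large subunit. eIF2B reloads eIF2 with GTP, and kinases that sense haem, double-stranded RNA, unfolded proteins or amino acid shortage block this step by phosphorylating eIF2. The study asked how loss of Fgfr1 alters gene expression in the proximal incisor and went on to mTOR signalling, a pathway known to act on initiation through the cap-binding complex. The values below are RNA levels and say nothing of the amount or phosphorylation of the proteins.

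The control libraries held 31060207 to 32712454 counts and the mutant libraries 5276568 to 11819566, so every mutant library was shallower than every control. The share of genes at 0 counts was 3.83 to 3.96% in the controls and 17.1 to 30.3% in the mutants. Fgfr1 had 529, 924 and 434 CPM (counts scaled to a common library size) in the controls and 148, 318 and 262 CPM in the mutants, and the genotypes did not overlap. These counts cover the whole gene and not the floxed part alone. The 6 markers of dental epithelium and ameloblasts summed to 84859 to 119600 CPM in the controls and 32737 to 71730 CPM in the mutants, with 1 of them past the threshold and higher. The 5 odontoblast markers summed to 25059 to 68244 CPM and 22757 to 28698 CPM, with 1 past the threshold and lower. The 6 skeletal muscle markers ran from 8.04 to 2491 CPM in the controls and from 126 to 5373 CPM in the mutants, with none past the threshold. Control 2 was the highest control for the odontoblast and the muscle markers. The other controls reached at most 31055 CPM for the odontoblast markers and 25.7 CPM for the muscle markers. The 6 erythroid markers ran from 380 to 833 CPM and from 926 to 2560 CPM, with 2 higher and 1 lower past the threshold. The 6 dental mesenchyme markers (248 to 425 and 356 to 480 CPM), 5 macrophage markers (81.2 to 238 and 147 to 235 CPM) and 4 endothelial markers (132 to 221 and 111 to 115 CPM) had none past the threshold. Of these markers, Barx1, Myh4 and Slc4a1 were at 0 in at least 1 library. Depth followed genotype, so its part in the values below cannot be told apart from that of genotype. The part of tissue composition was not tested, and in bulk RNA fewer cells of a type and less RNA per cell cannot be told apart.

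Of the 37 initiation factor genes, 7 were higher in the mutants at the threshold of the study, an unadjusted p under 0.05 and over 1.5-fold, and 2 were lower. The 7 were Eif2s1, Eif2s2, Eif3e, Eif3h, Eif3m, Eif4a2 and Eif1ax, and the 2 were Eif2b5 and Eif4g1. The 9 made up 24.3% of the members, beside 19.8% of all 15826 genes tested. Among all genes tested, 10.9% were higher and 8.92% lower at this threshold. The remaining 28 members had log2 fold changes between -1.05 and 0.59. The test was the two-sided quasi-likelihood test of edgeR over all genes, and CPM are counts scaled by the upper quartile of each library.

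At a Benjamini-Hochberg adjusted p under 0.05 over all genes in the edgeR test, 4 members passed: Eif2s1, Eif3e and Eif1ax were higher and Eif4g1 was lower. This is 10.8% of the members beside 6.79% of all genes tested, of which 3.72% were higher and 3.06% lower. All 4 adjusted p-values lay between 0.0414 and 0.0464, close to the threshold. Leaving out any 1 library except control 2 took the adjusted p of all 4 genes past 0.05, and without control 2 only Eif1ax stayed under it, at 0.0495 by edgeR. The same 4 genes kept an unadjusted p under 0.05 and over 1.5-fold in all of these 6 fits.

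The 3 mutant libraries lay all above or all below the 3 control libraries for 14 members, 7 in each direction. This was 37.8% of the members beside 30.4% of all genes tested. The median log2 fold change of the 37 members was -0.04, which was also that of all genes tested. When libraries were scaled by total counts alone, the median of all genes moved to -0.30 and that of the members to -0.28. With that scaling 6 members were higher and 7 lower. Of all 15826 genes tested, 3588 were then called, 1253 of them higher and 2335 lower. Thus 34.9% of all called genes were higher, against 55% with upper-quartile scaling. TMM scaling gave a median of -0.13 over all genes.

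**Figure D1:**
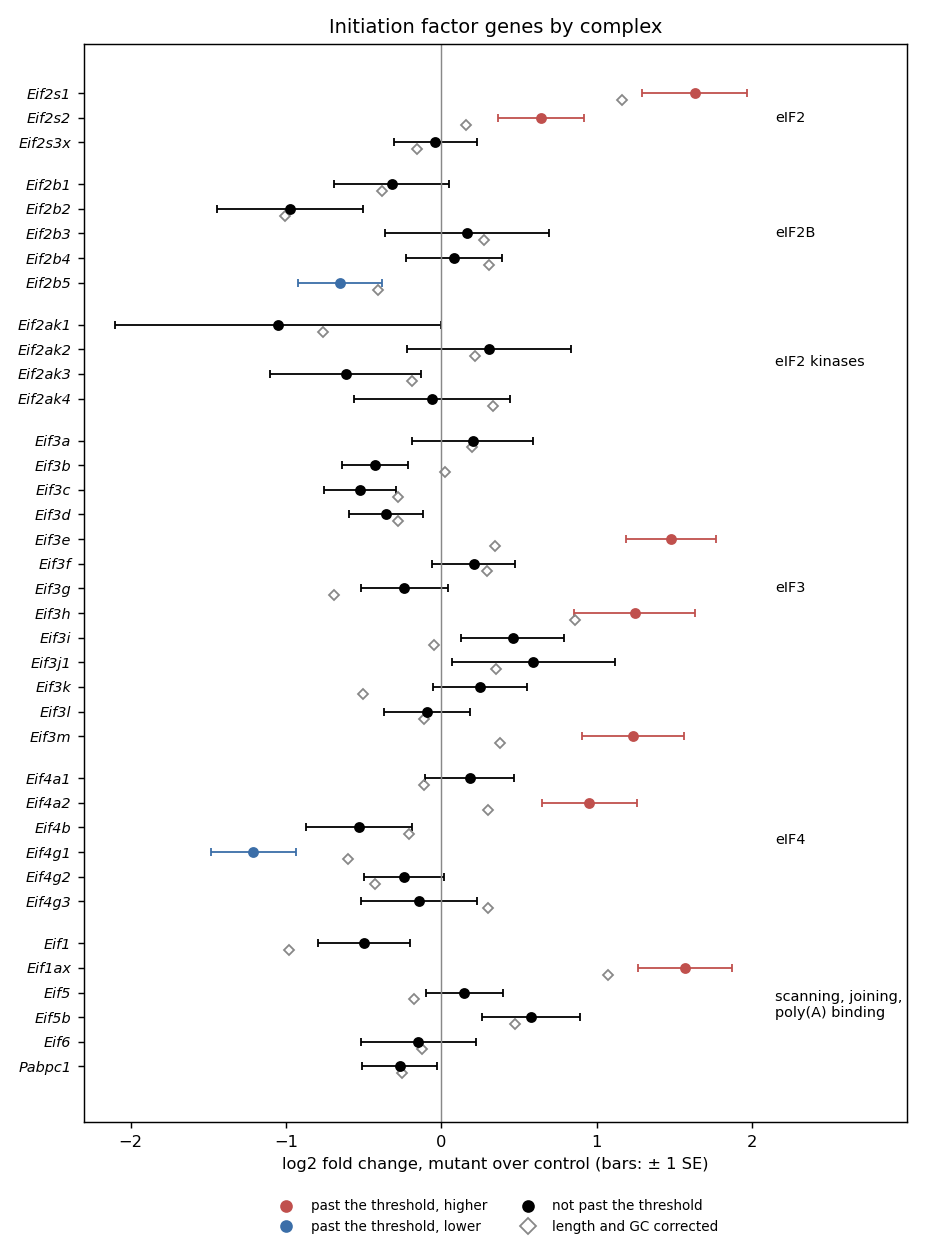
Log2 fold change of each initiation factor gene, mutant over control, grouped by complex. Circles with bars are the fitted values ± 1 standard error (3 libraries per genotype), and open diamonds are the values once trends with length and GC content were removed. The 7 red genes and 2 blue genes passed the unadjusted threshold, and the diamonds of all 7 red genes lie nearer to 0 than their circles.

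The median log2 fold change of each group is given here as a description with no test. It was 0.64 for eIF2, 0.21 for eIF3 and 0.00 for the scanning, joining and poly(A) binding genes. For eIF4 the median was -0.19, for eIF2B -0.32 and for the eIF2 kinases -0.34. Thus eIF2 had the highest median and its exchange factor and kinases the lowest, while within eIF3, eIF4 and the scanning genes single members departed from the rest. The eIF2 median is the value of Eif2s2, the middle one of its 3 genes. Leaving out single libraries changed the low end of this order. Without control 1 the median was -0.333 for eIF4 and -0.150 for eIF2B, and without control 2 it was -0.105 for eIF4 and -0.099 for the kinases. After a correction for the length and GC content of transcripts the kinase median was 0.02, no longer among the lowest, beside 0.16 for eIF2, 0.02 for eIF3, -0.15 for the scanning genes, -0.16 for eIF4 and -0.38 for eIF2B. With total counts the eIF3 median was below 0, at -0.05.

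The sequence at the start of a gene's RNA is of interest for this family because many mRNAs of the translation machinery begin with a C followed by a run of pyrimidines, the 5′ terminal oligopyrimidine (TOP) element through which mTOR is known to govern their translation. RefSeq starts on GRCm38.p6 were held for 30 of the 37 members. The start nearest the gene's annotated 5′ end was read on the sense strand and searched for a C at the first base followed by at least 4 bases that are C or T. Starts of Eif3f and Eif2s3x held this run, which is 6.7% of the members with a start, beside 2.51% of all 32851 starts of the table. Those of the 4 members below them, which passed the threshold between the genotypes, did not. Every other member with a start lacked the run too, whether past the threshold or not. The 30 bases shown run from 5 before the start to 25 from it, and capitals mark the pyrimidine run at the start.
Eif3f (chr7:108934410-108934439, + strand): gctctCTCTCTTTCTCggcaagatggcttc
Eif2s3x (chrX:94212627-94212656, - strand): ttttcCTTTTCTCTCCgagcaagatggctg
Eif2s1 (chr12:78862067-78862096, + strand): ggcgaagcgcacgctgaggagcttcggcgt
Eif3m (chr2:105017003-105017032, - strand): ggcgtgtttctggatcggagcgtcttccgc
Eif1ax (chrX:159372173-159372202, + strand): agggcggggagaagccccgcccgctgccgc
Eif4g1 (chr16:20672722-20672751, + strand): gctccgccctctgcgccggtcacgtggggc
An annotated start can lie some bases from the start used in this tissue, so that a missing run says only that these letters are not at this position. The Eif4g1 start shown lies 4414 bases inside the gene as GENCODE draws it, that of Eif2s1 253 bases and that of Eif2s3x 211 bases. The starts of Eif2b3, Eif3e, Eif3h, Eif3i, Eif4g2, Eif6 and Pabpc1 were not analysed here.

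eIF2 carries the initiator tRNA, and 2 of its 3 subunit genes were past the threshold and higher. Among all genes tested, 19.8% were past it and 10.9% were higher. Eif2s1 (chr12:78861819-78887010, GRCm38) encodes the alpha subunit, which holds the serine that the eIF2 kinases phosphorylate. It had 63.6, 32.0 and 55.8 CPM in the controls and 170, 107 and 192 CPM in the mutants, a mean of 50.5 ± 16.5 against 156 ± 43.7 (SD, n = 3 each). All 3 mutant libraries lay above all controls, by 3.096-fold in the fit, with a log2 fold change of 1.63 (SE 0.34) and an adjusted p of 0.0462 by edgeR. Leaving out each library in turn gave 1.39 to 1.83. This was the largest fold change of the 37 members.

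Eif2s2 (chr2:154871410-154892935) encodes the beta subunit, which contacts eIF5 and eIF2B. Its level was 139, 78.5 and 117 CPM in the controls and 157, 157 and 208 CPM in the mutants, again without overlap. Its log2 fold change was 0.64 (SE 0.28), with an unadjusted edgeR p of 0.0483 and an adjusted p of 0.243. The gene passed the unadjusted threshold only narrowly. It lost it when control 2, control 3 or any one mutant library was left out, with log2 fold changes between 0.45 and 0.70.

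Eif2s3x, the X-linked gene of the gamma subunit that binds GTP and the tRNA, had 147, 107 and 154 CPM in the controls and 102, 166 and 127 CPM in the mutants. The genotypes overlapped, and the log2 fold change was -0.04 (SE 0.27). Per kilobase of transcript, Eif2s1 was the lowest of the 3 subunit genes in the controls, at 14.8 ± 4.84 CPM per kilobase against 37.2 ± 6.87 for Eif2s3x and 43.8 ± 12.0 for Eif2s2. In the mutants Eif2s1 stood at 45.9 ± 12.8, between Eif2s3x at 36.2 ± 8.83 and Eif2s2 at 68.4 ± 11.5 CPM per kilobase, where its libraries overlapped those of Eif2s3x and lay below all those of Eif2s2. The ratio of Eif2s1 to Eif2s3x within a library was 0.434, 0.299 and 0.363 in the controls and 1.66, 0.646 and 1.51 in the mutants. The pair was chosen after its values were seen, and an exact two-sided permutation test gave p = 0.1, the smallest that 3 samples against 3 allow.

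The Y-linked copy of the gamma subunit gene, Eif2s3y, had 15.7, 12.3 and 14.5 CPM in the controls, 0 counts in mutants 1 and 2, and 35.0 CPM in mutant 3. The Y-linked genes Ddx3y, Uty and Kdm5d were also at 0 counts in mutants 1 and 2 and present in the other 4 libraries. Xist, which is made from the inactive X chromosome, had 109 and 283 CPM in mutants 1 and 2 and at most 0.175 CPM elsewhere. The labels give no sex, and these genes are named because of their values. The sex-linked counts thus split the mutants and not the controls, and mutant 3 came from another mouse than mutants 1 and 2. Every control had Y-linked counts, as mutant 3 did, so that these counts differed in part with genotype. The part of sex in the fold changes was not tested. Among the members Eif2s3x and Eif1ax are X-linked, and mutant 3, with Y-linked counts, lay within the range of the other mutants for Eif2s3x.

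**Figure D2:**
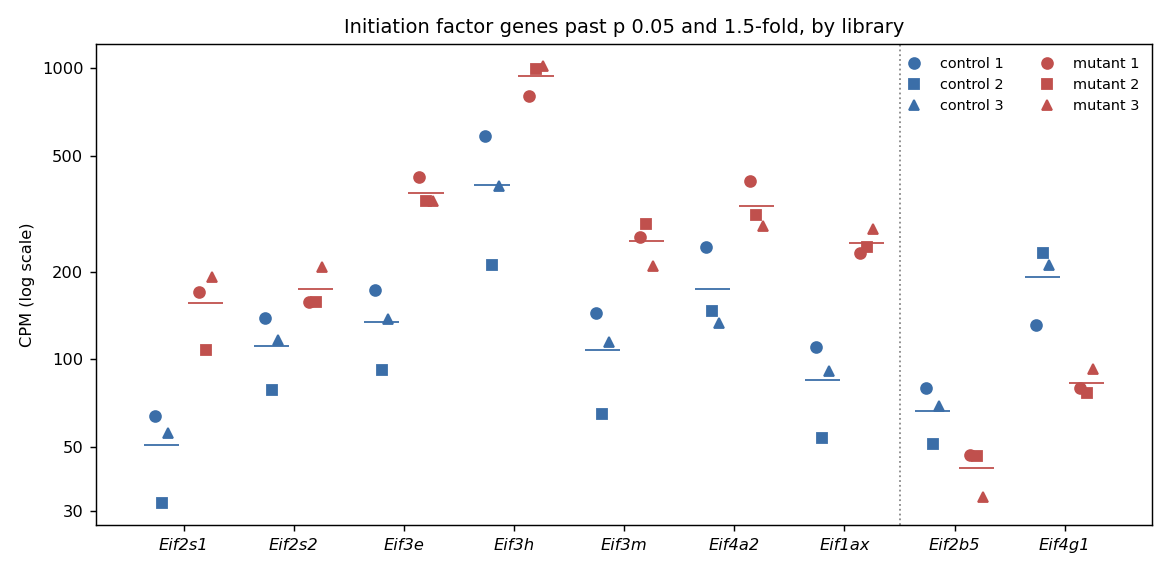
CPM of the 9 initiation factor genes past the unadjusted threshold, on a log axis. Each symbol is 1 library, blue for control and red for mutant, and lines are means of 3. For Eif2s1 to Eif1ax, left of the dotted line, every mutant library lies above every control, and for Eif2b5 and Eif4g1, right of it, every mutant library lies below. Control 2 is the lowest control in 7 of the 9 genes.

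eIF2B, the exchange factor of eIF2, had 1 of its 5 subunit genes past the threshold, or 20% beside 19.8% of all genes tested. Eif2b5 (chr16:20498817-20509323), which encodes the catalytic epsilon subunit, had 79.4, 51.2 and 68.8 CPM in the controls and 46.9, 46.5 and 33.5 CPM in the mutants. All mutant libraries lay below the controls, with a log2 fold change of -0.65 (SE 0.27), an unadjusted edgeR p of 0.0409 and an adjusted p of 0.223. The gene did not pass without control 1, control 3, mutant 2 or mutant 3, with log2 fold changes between -0.74 and -0.51.

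Eif2b2, of the regulatory beta subunit, had 35.2, 23.9 and 37.4 CPM in the controls and 6.98, 22.4 and 19.4 CPM in the mutants. The genotypes did not overlap, but the log2 fold change of -0.97 (SE 0.47) missed the threshold, with an edgeR p of 0.0707. It was -0.64 without mutant 1, and -1.28 with an unadjusted edgeR p of 0.0462 without mutant 2. The other subunit genes overlapped between the genotypes. Their log2 fold changes were -0.32 (SE 0.37) for Eif2b1, 0.16 (SE 0.53) for Eif2b3 and 0.08 (SE 0.31) for Eif2b4. Per kilobase, Eif2b5 was the highest of the 5 in both genotypes, at 26.0 ± 5.59 and 16.6 ± 2.99 CPM per kilobase, and Eif2b3 the lowest, at 3.11 ± 0.66 and 3.47 ± 1.43.

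None of the 4 eIF2 kinase genes passed the threshold, which 19.8% of all genes tested did. Eif2ak1, the haem-regulated kinase HRI, had 41.2, 46.1 and 40.9 CPM in the controls and 0, 29.2 and 31.8 CPM in the mutants. The 3 controls were the closest but one among the members, with the highest 1.13 times the lowest, and mutant 1 had 0 counts, which allows up to 3 counts or 0.655 CPM at its depth. The log2 fold change was -1.05 (SE 1.05), with an adjusted edgeR p of 0.664, and without mutant 1 it was -0.50 with an adjusted edgeR p of 0.243. The erythroid markers, of the lineage in which this kinase is best known, summed to more in every mutant library than in any control, and their part in this value was not tested.

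Eif2ak3, the kinase PERK of the endoplasmic reticulum, had 17.3, 31.1 and 27.4 CPM in the controls and 7.42, 18.5 and 23.2 CPM in the mutants, with overlap and a log2 fold change of -0.62 (SE 0.49). Eif2ak2, the double-stranded RNA sensor PKR, had a log2 fold change of 0.31 (SE 0.53) and Eif2ak4, the amino acid sensor GCN2, of -0.06 (SE 0.51). All 4 kinase genes were among the lower members, with mean control levels of 12.1 to 42.7 CPM. Their standard errors ran from 0.49 to 1.05, with the highest for Eif2ak1 and its 0 counts in mutant 1. Atf4, whose translation rises when eIF2 is phosphorylated, had 71.3, 55.4 and 51.4 CPM in the controls and 46.5, 33.8 and 67.1 CPM in the mutants, with a log2 fold change of -0.27 (SE 0.31).

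eIF3 is the largest initiation factor and the scaffold on which the small subunit, eIF4G and the mRNA meet. Of its 13 subunit genes, 3 were past the threshold and higher, and none was lower. That is 23.1%, near the 19.8% of all genes tested, so that the count is not particular to eIF3. The other 10 had log2 fold changes from -0.53 to 0.59.

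Eif3e (chr15:43250058-43282719), the Int6 gene at which mouse mammary tumour virus is known to integrate, had 173, 91.8 and 137 CPM in the controls and 423, 349 and 349 CPM in the mutants. The lowest mutant library was thus 2.02 times the highest control. The log2 fold change was 1.48 (SE 0.29), which is 2.79-fold, with an adjusted p of 0.0423 by edgeR and values from 1.27 to 1.70 when each library was left out. After the correction for length and GC content it was 0.35, with an unadjusted edgeR p of 0.0774.

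Eif3h (chr15:51786558-51865523), an MPN domain subunit, was the most abundant eIF3 gene. It had 584, 210 and 393 CPM in the controls and 801, 993 and 1019 CPM in the mutants. The genotypes did not overlap although the controls differed by 2.78 times, the widest spread between controls of any member. The log2 fold change was 1.25 (SE 0.39), with an edgeR p of 0.0121 (adjusted p 0.109).

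Eif3m (chr2:104999656-105017080), a PCI domain subunit, had 144, 64.6 and 115 CPM in the controls and 262, 291 and 209 CPM in the mutants. All mutants were above all controls. Eif3m thus had a log2 fold change of 1.24 (SE 0.33), with an edgeR p of 0.00529 (adjusted p 0.0660). It stayed past the unadjusted threshold without any 1 library, at 0.97 to 1.498. It missed that threshold after the length and GC correction, at 0.38 with an adjusted edgeR p of 0.551.

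Eif3b and Eif3c lay below the controls in every mutant library without passing the threshold. Eif3b, the scaffold subunit that binds Eif3g and Eif3i, had 140, 146 and 167 CPM in the controls and 123, 99.4 and 114 CPM in the mutants, with a log2 fold change of -0.43 (SE 0.21) and an edgeR p of 0.0800. Eif3c, which contacts eIF1, had 145, 167 and 153 CPM against 114, 84.6 and 124 CPM, with -0.53 (SE 0.23) and an edgeR p of 0.0528. Within the library, Eif3e was 1.24, 0.630 and 0.820 times Eif3b in the controls and 3.43, 3.51 and 3.07 times in the mutants. The ratio of Eif3h to Eif3b was 4.18, 1.44 and 2.35 in the controls and 6.499, 9.996 and 8.94 in the mutants. Both pairs were chosen after their values were seen, and the exact two-sided permutation p of each was 0.1, the smallest possible. Eif3b has 55.9% GC and Eif3e 40.3%, and after the length and GC correction the log2 fold changes were 0.02 for Eif3b, 0.35 for Eif3e and 0.86 for Eif3h, which puts Eif3b near 0 and much nearer to Eif3e than before. Eif3c was at -0.28 after the correction.

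Eif3a, the largest subunit, had 106, 184 and 140 CPM in the controls and 82.9, 179 and 232 CPM in the mutants, with a log2 fold change of 0.20 (SE 0.39). Eif3d, a subunit known to bind the cap of some mRNAs, was at -0.36 (SE 0.24), Eif3f, the partner of Eif3h, at 0.21 (SE 0.27), and Eif3l at -0.09 (SE 0.28). The genotypes overlapped in each of these, and likewise in Eif3g at -0.24 (SE 0.28), Eif3i at 0.46 (SE 0.33) and Eif3k at 0.25 (SE 0.30). Of these, Eif3g alone passed the unadjusted threshold after the length and GC correction, with a log2 fold change of -0.69 and an adjusted edgeR p of 0.0823.

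Eif3j1, the loosely bound subunit, had 25.5, 15.9 and 20.3 CPM in the controls and 10.5, 46.2 and 35.8 CPM in the mutants, with a log2 fold change of 0.59 (SE 0.52). Its near-identical copy Eif3j2 shares 37.7% of the 75-base windows of the Eif3j1 transcript, so that reads could be divided between them in either way. Eif3j2 had 21.6, 18.7 and 19.6 CPM in the controls and 97.6, 64.2 and 64.2 CPM in the mutants. Its counts were 84.6, 118 and 96.6% of those of Eif3j1 in the controls and 931, 139 and 179% in the mutants. Summed, the pair had a log2 fold change of 1.39 and an adjusted p of 0.0217 by edgeR, in a fit chosen after seeing the data. The part of each gene in that difference cannot be told apart.

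Per kilobase of transcript the eIF3 genes spanned a wide range in the controls, from 306 ± 144 CPM per kilobase for Eif3h to 3.80 ± 0.89 for Eif3j1. Eif3k followed Eif3h at 223 ± 77.3, then Eif3i at 164 ± 65.5 and Eif3f at 146 ± 31.8, and each of these lay within the spread of its neighbour. Eif3g, Eif3e, Eif3l and Eif3m stood between 84.0 and 91.8 and could not be ordered. Eif3d at 63.5 ± 12.6, Eif3b at 51.3 ± 4.91, Eif3c at 45.7 ± 3.34 and Eif3a at 28.0 ± 7.58 CPM per kilobase came next. In the mutants Eif3h was again first, at 724 ± 91.8. There Eif3e stood at 248 ± 28.3 and Eif3m at 198 ± 32.6, with all their libraries above those of Eif3g and Eif3l. Eif3e overlapped Eif3k and Eif3i in the mutants, and Eif3m overlapped Eif3i and Eif3f, so that these could not be ordered. These levels use the longest annotated transcript of each gene, and the counted gene models may differ.

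**Figure D3:**
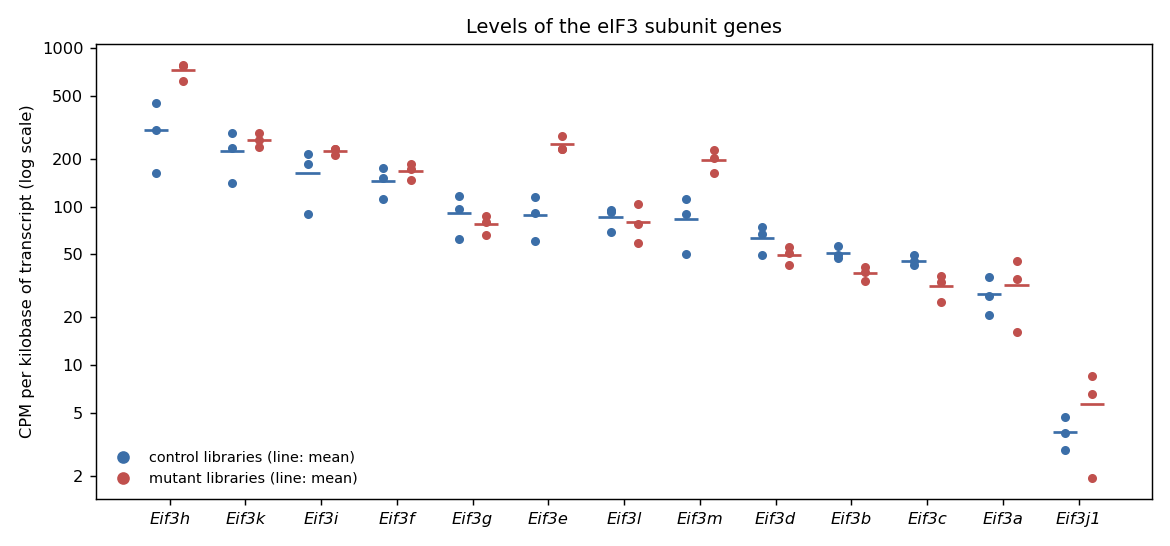
Levels of the 13 eIF3 subunit genes in CPM per kilobase of the longest annotated transcript, on a log axis, ordered by the control mean. Each dot is 1 library and each line a mean of 3. Only Eif3h, Eif3e and Eif3m have all red dots above all blue dots, and Eif3b and Eif3c have all red dots below.

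The eIF4 group held 1 member past the threshold in each direction, or 33.3% of its 6 genes beside 19.8% of all genes tested. Eif4g1 (chr16:20668313-20692884) encodes the scaffold that joins the cap-binding protein, the helicase, eIF3 and the poly(A) binding protein. It had 131, 232 and 211 CPM in the controls and 79.2, 76.4 and 92.6 CPM in the mutants. Every mutant library lay below every control, with means of 192 ± 53.1 and 82.8 ± 8.65 CPM. The log2 fold change was -1.21 (SE 0.27), a level 2.31-fold lower, with an adjusted p of 0.0464 by edgeR. Without each library in turn it ran from -1.42 to -1.05, and after the length and GC correction it was -0.60 with an unadjusted edgeR p of 0.0182.

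The related scaffold genes did not pass. Eif4g2, which encodes a shorter protein without the cap-binding protein's site, had the highest mean of the members in the controls, with 719, 802 and 724 CPM, and had 523, 733 and 645 CPM in the mutants, where Eif3h was higher. Its log2 fold change was -0.24 (SE 0.26), and the libraries overlapped. Eif4g3 had 41.3, 92.8 and 66.0 CPM against 38.0, 61.8 and 80.9 CPM, with -0.14 (SE 0.38). The ratio of Eif4g1 to Eif4g2 was 0.183, 0.289 and 0.292 in the controls and 0.151, 0.104 and 0.144 in the mutants. This pair too was chosen after its values were seen, with the smallest exact permutation p possible, 0.1. After the length and GC correction the log2 fold changes of the pair were closer, at -0.60 and -0.43.

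The genes of the helicase eIF4A, which unwinds the leader of the mRNA, came in a pair. Eif4a2 (chr16:23107444-23114136) had 243, 146 and 133 CPM in the controls and 408, 314 and 288 CPM in the mutants, without overlap. Its log2 fold change was 0.95 (SE 0.31), with an edgeR p of 0.0142 (adjusted p 0.120). It missed the threshold without control 3, at 0.79, or without mutant 1, at 0.78. Eif4a1, the major form, had 617, 360 and 575 CPM in the controls and 639, 546 and 577 CPM in the mutants, with a log2 fold change of 0.18 (SE 0.29). Eif4a2 amounted to 0.393, 0.406 and 0.232 of Eif4a1 in the controls and 0.639, 0.575 and 0.499 in the mutants. The exact two-sided permutation p of this ratio, chosen after its values were seen, was 0.1, the smallest possible. After the length and GC correction the log2 fold changes of Eif4a2 and Eif4a1 were closer, at 0.30 and -0.11. Of the windows of Eif4a1, 62.9% also occurred in other genes, and its copies in the table held 5.20 to 5.51% of its counts in the controls and 22.6 to 26.7% in the mutants. Summed with them, Eif4a1 had a log2 fold change of 0.42, with an adjusted p of 0.493 by edgeR. The ratio of Eif4a2 to Eif4a1 leaves these copies out.

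Eif4b, a cofactor of the helicase and a known target of the S6 kinases, had 293, 332 and 283 CPM in the controls and 131, 318 and 179 CPM in the mutants. Mutant 2 lay among the controls and the others below, and the log2 fold change was -0.53 (SE 0.34). Without mutant 2 it was -0.98 with an unadjusted edgeR p of 0.0129. The result for this gene thus rested on mutant 2.

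Among the genes for scanning, joining and poly(A) binding, Eif1ax alone passed the threshold, or 16.7% beside 19.8% of all genes tested. Eif1ax (chrX:159372178-159389928) encodes eIF1A, which with eIF1 keeps the small subunit open for scanning. It had 110, 53.7 and 90.7 CPM in the controls and 231, 242 and 280 CPM in the mutants. The lowest mutant library was 2.10 times the highest control, and the log2 fold change was 1.57 (SE 0.30), a 2.96-fold difference with an adjusted p of 0.0414 by edgeR. This was the smallest adjusted p of the 37 members. Mutant 3, the only mutant with Y-linked counts, was the highest of the mutants. Leaving out each library gave 1.32 to 1.80, and the value after the length and GC correction was 1.07 with an unadjusted edgeR p of 0.00588. None of its windows occurred in another gene. Of the other members that were higher, Eif2s2 shared 22.4% of its windows with other genes, Eif3m 21.3% and Eif3h 16.7%. Eif3e shared 7.89%, Eif4a2 6.19% and Eif2s1 3.24%, and Eif2b5 and Eif4g1 shared none. Eif2s3x, set against Eif2s1 in a ratio above, shared 35.7%.

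Eif1, the partner of eIF1A in start codon selection, had 367, 261 and 322 CPM in the controls and 296, 156 and 221 CPM in the mutants. The libraries overlapped, and the log2 fold change was -0.50 (SE 0.30). It was past the unadjusted threshold without mutant 1, at -0.76, and after the length and GC correction, at -0.98. The ratio of Eif1ax to Eif1 was 0.300, 0.206 and 0.282 in the controls and 0.782, 1.55 and 1.27 in the mutants. The exact permutation p of this pair, again chosen after its values were seen, was 0.1, the smallest possible.

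Eif5, which makes eIF2 hydrolyse its GTP, had 134, 99.5 and 112 CPM in the controls and 102, 127 and 155 CPM in the mutants, with a log2 fold change of 0.15 (SE 0.25). Eif5b, the GTPase that joins the subunits, had 55.3, 72.6 and 54.6 CPM against 97.1, 55.3 and 120 CPM, with 0.58 (SE 0.31). Without mutant 2 the value for Eif5b was 0.83, with an unadjusted edgeR p of 0.0173. Eif6, which keeps the subunits apart, was at -0.15 (SE 0.37). Pabpc1, the cytoplasmic poly(A) binding protein, had 670, 777 and 715 CPM in the controls and 646, 564 and 584 CPM in the mutants. All 3 mutants lay below the controls for Pabpc1, but the log2 fold change of -0.27 (SE 0.24) missed the threshold.

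Fold changes tended to be higher in members whose transcripts had a lower GC content. The 7 members that were higher had transcripts of 39.7 to 51.3% GC and the 2 that were lower had 53.2 and 54.2%. Of the 13 members under 45% GC, 6 were past the threshold and higher. Of the 24 members at 45% or more, Eif3h was higher and Eif2b5 and Eif4g1 were lower. The share of all genes past the threshold in these GC ranges was not counted, so these counts cannot be called particular to the members. Spearman's rho between log2 fold change and GC content was -0.59 over the 37 members and -0.31 over the 13677 protein-coding genes tested. These are correlations across genes that share the same 6 libraries, and genes are not independent replicates.

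The same direction was present in all protein-coding genes. Their median log2 fold change was 0.65 below 40% GC, 0.24 from 40 to 45%, -0.04 from 45 to 50%, -0.27 from 50 to 55% and -0.37 above. Eif1ax, the only member below 40% GC, was at 1.57 beside the 0.65 of its bin. Between 40 and 45% GC, all 12 members had a median log2 fold change of 0.585, beside the 0.24 of that bin. The 5 of them past the threshold were Eif2s1, Eif3e, Eif3m, Eif4a2 and Eif2s2, at 1.63, 1.48, 1.24, 0.95 and 0.64. They were picked for passing it as higher, so that a place above the median of the bin was fixed in advance. After the length and GC correction these 5 were at 1.16, 0.35, 0.38, 0.30 and 0.16. Against transcript length rho was -0.12 over the members and -0.24 over the coding genes. The medians of the coding genes ran from 0.93 under 1000 bases to -0.28 between 4000 and 6000 bases.

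When trends with the length and base composition of transcripts were removed from each library, 6 members were past the unadjusted threshold, or 16.2% beside 14.5% of all genes tested. Eif2s1, Eif3h and Eif1ax were higher and Eif3g, Eif4g1 and Eif1 lower. Thus 4 of the 9 genes named first kept their call, and Eif2s2, Eif3e, Eif3m, Eif4a2 and Eif2b5 did not. No member had an adjusted p under 0.05 after it, and the smallest was 0.0717, of Eif1. Spearman's rho between corrected log2 fold change and GC content was still -0.46 over the 37 members, against 0.04 over the coding genes. The correction removes any real difference that follows length or GC content as well, and whether the trend comes from the libraries or the tissue was not tested.

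**Figure D4:**
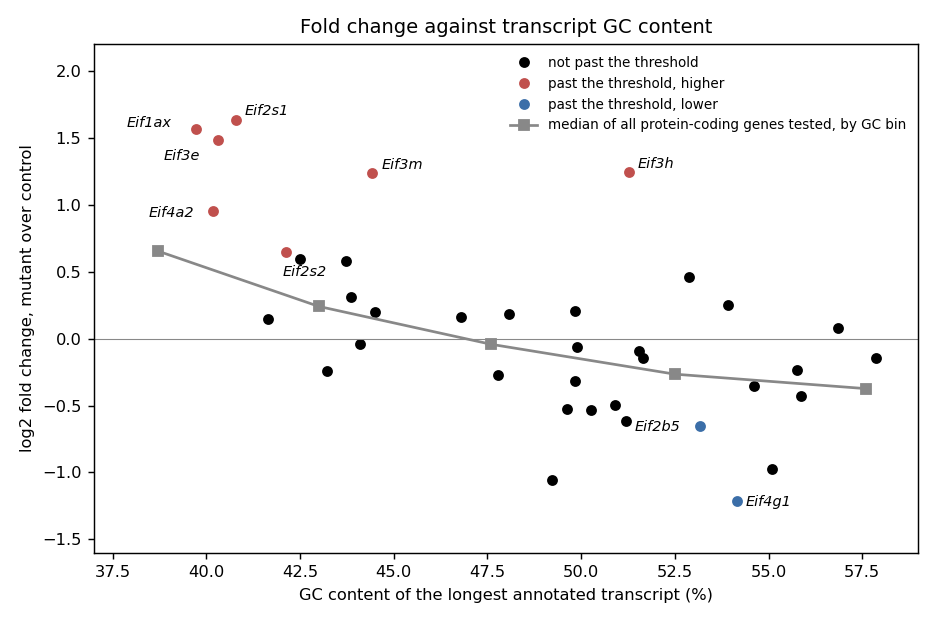
Log2 fold change of the 37 initiation factor genes against the GC content of their longest annotated transcript. Red and blue dots passed the unadjusted threshold, and grey squares are medians of all protein-coding genes tested in 5 bins of GC content, running from 0.65 to -0.37. Both the dots and the grey line slope downward from left to right.

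The libraries of one genotype also differed among themselves. Across all genes tested, Pearson's r of log2 CPM was 0.944 to 0.973 between controls, 0.725 to 0.791 between mutants and 0.689 to 0.818 between a control and a mutant, where the range between mutants lies within the range between genotypes. Mutant 1, the shallowest library, was the lowest mutant for 18 members and the highest for 13. Control 2 was the lowest control for 23 of the 37 members and the highest for 12, and in between for the other 2. It was the lowest for all 3 subunits of eIF2 and the highest for all 3 eIF4G genes. The mean log2 CPM of the eIF3 genes was 7.38, 6.76 and 7.22 in the controls and 7.31, 7.51 and 7.49 in the mutants, so that the genotypes overlapped. That of the eIF2 genes was 6.77, 6.02 and 6.64 in the controls and 7.13, 7.14 and 7.42 in the mutants, without overlap.

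Beside the members, 44 other genes of translation, among them further initiation factors and the elongation and release factors, were all tested. At the unadjusted threshold 10 were higher and 2 lower, or 27.3% beside the 19.8% of all genes, with a median log2 fold change of 0.19. Eif3j2 alone had an adjusted p under 0.05, at 1.92 (SE 0.27) with an adjusted p of 0.0122 by edgeR. Denr, which acts in reinitiation, was higher, at 0.99 (SE 0.27), and so was Eef1d, of the exchange complex of elongation factor 1, at 1.08 (SE 0.32). Eif4ebp2, a repressor of the cap-binding protein, was lower at -0.78 (SE 0.24), and so was Eef2, the translocase of elongation, at -0.75 (SE 0.30). Eif4e, the cap-binding protein itself, had 82.9, 48.2 and 70.9 CPM in the controls and 57.6, 74.0 and 82.9 CPM in the mutants, with 0.09 (SE 0.28). Eif5a, which aids the ribosome at proline stretches, was at 0.12 (SE 0.36). After the length and GC correction 5 of the 44 were higher and 0 lower. Over all 15826 genes tested, 1138 were then higher and 1163 lower, together 14.5%.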

How the data were processed

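RNA from 3 control and 3 mutant samples of the proximal incisor was sequenced as single 75-base reads, aligned to mm10 by the authors in Partek Flow. The number of incisors in a sample is not given in the sources used here. The submitters' processing notes name TopHat2 2.0.8. The authors deposited estimated counts per gene, not normalized. The counting model, annotation and gene filter are not given in the sources used here. A table of the authors' own comparison (p-values, ratios, fold changes, group means) was not used.

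Counts were rounded and analysed in R 4.3.3 with edgeR 4.0.16 (upper-quartile scaling, filterByExpr with a minimum count of 10 and total of 15, genotype only, quasi-likelihood test, Benjamini-Hochberg adjustment). Standard errors are the log2 fold change divided by the root of F. DESeq2 1.42.0 and limma 3.58.1 served as alternatives. The length and GC correction was a spline of 4 degrees of freedom per library, fitted on coding genes averaging 50 counts or more. Transcript lengths and base composition were read from GENCODE M21 (GRCm38), matched by symbol for 18637 of 19060 genes and all 37 members. Shared sequence was searched as exact 75-base windows of transcripts. A count of 0 allows up to 3 counts, and covers counting error only.

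The members and lists were chosen with earlier results of these data known, so no list was tested. All members are named, with up to 3 other translation factors of smallest p in each direction, Eif4e, Eif5a and Atf4. Copies were summed in an alternative chosen after seeing the data. The result of 1 marker list is not reported here.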

Additional observations from a re-analysis of the deposited data

How the results depend on the processing

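Over 18 alternatives, the 37 members gave 666 values, of which 621 stayed on the same side of the unadjusted threshold in the same direction, 27 lost it, 18 gained it and 0 reversed a call. Eif2s1, Eif3h, Eif4g1 and Eif1ax passed it in all 18. Members that were higher numbered 3 instead of 7 after the length and GC correction, with or without the replicate block. Members that were lower numbered 7 instead of 2 with total counts, 4 with the block and the correction, and 1 to 3 without each library. Adjusted calls numbered 4 in the main analysis, 7 with DESeq2, 2 with control counts thinned, 0 without the filter, after the correction and with the correction and block, and 0 to 1 without each library. Over all genes, 3137 were called, against 3588 with total counts and 4733 without the filter. With the correction and block 1669 were called, and without each library 2006 to 4732. Adjusted calls over all genes were 1074, against 229 without the filter, 370 with a minimum mean count of 50, 508 with the replicate block, 138 after the correction, 124 with the correction and block, 374 with thinned controls, and 76 to 606 without each library. DESeq2 gave 1609. The replicate numbers did not pair the samples, with correlations of deviations of 0.05, 0.01 and 0.06, and the block left 3 adjusted member calls, without Eif4g1.

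Total counts moved the median log2 fold change of eIF3 to -0.046, of eIF4 to -0.46, of the scanning group to -0.24 and of the 44 other factors to -0.091. The eIF2 median was 0.16 after the correction and 0.15 with the block as well, and that of the scanning group -0.20 with both. Without each library the eIF4 median ran from -0.347 to -0.027 and that of the scanning group from -0.131 to 0.196. Of the 44 other factors, 5 were higher after the correction with or without the block and 0 lower, and with total counts 4, with limma-trend 1 and without each library 1 to 3 were lower. The cause of these differences was not tested. After the correction the eIF2 kinase median was 0.016, and -0.050 with the block as well, against -0.338. At the depth of mutant 1, a count of 0 allows up to 0.655 CPM.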
